A study of Mus musculus with 8 samples.

Results

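The genes described here are a set of 46 mouse genes for DNA replication and homologous repair, chosen by name and sorted by their known roles. They were measured on Affymetrix 3' expression arrays, on which a gene is read by 1 or more probe sets. Of the 46, 45 had at least 1 probe set annotated to that gene alone, with 103 such probe sets among the 45101 of the array, and Chaf1a had none. A filter on dim signals left 25236 probe sets for 11643 genes, among them 90 probe sets of all 45 members. Each gene is described by its brightest tested probe set unless another is named.

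The study put PGC7, also called Stella or Dppa3, into cultured cells by overnight incubation with virus and polybrene, and asked how gene expression differed from control cells. PGC7 is a maternal and germ cell protein known for protecting DNA methylation in the early embryo. There were 4 groups over 8 arrays: NIH3T3 control (1 array), NIH3T3 PGC7 (3 arrays: an uncloned culture, clone 1 and clone 2), B16F10 control (1 array) and B16F10 PGC7 (3 arrays: clones 1 to 3). NIH3T3 cells are immortalized fibroblasts from mouse embryos, and B16F10 cells come from a mouse melanoma; both were grown in serum-containing medium. The titles named the groups, because a second label gave all 6 PGC7 samples the name PGC8 and called all of them pre-cloned. The series describes the uncloned culture as a mixture of clones and the other cultures as independent clones. Whether controls received an empty virus, and which promoter drove PGC7, are not given in the sources used here.

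Cells copy their genome once per division. In G1 the origin recognition complex, Cdc6 and Cdt1 load the Mcm2 to Mcm7 helicase onto origins, and geminin blocks reloading; in S phase Cdc45 and the GINS complex switch the helicase on, and primase, the polymerases and the PCNA clamp build the new strands. Brca1, Brca2 and their partners repair broken or stalled forks by homologous recombination. Many of these genes are transcribed together at the G1 to S transition through E2F factors, so their messenger RNA is commonly read as a sign of proliferation.

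The start regions of members that carry the findings are printed first, because shared E2F-type words are a feature of this gene set that the arrays did not measure. RefSeq windows of 300 bases (250 before and 50 after a transcription start, GRCm38.p6) were found for 37 of the 46 members, 43 windows in all. The 4 words of the E2F consensus (TTTCGCGC, TTTGGCGC, TTTCCCGC and TTTGCCGC) were searched on both strands, and capitals mark their matches; matches on opposite strands can overlap. The windows shown are those of Cdt1 (chr8:122567765-122568064, plus strand), the upstream start of Mcm7 (chr5:138171834-138172133, minus strand), Mcm5 (chr8:75109259-75109558, plus strand), Brca2 (chr5:150522371-150522670, plus strand) and Brca1 (chr11:101551906-101552205, minus strand), each written 5′ to 3′ on the gene's strand. Cdt1, Mcm7, Brca2 and Brca1 changed with PGC7 in 1 line, and Mcm5 differed greatly between the lines.
Cdt1: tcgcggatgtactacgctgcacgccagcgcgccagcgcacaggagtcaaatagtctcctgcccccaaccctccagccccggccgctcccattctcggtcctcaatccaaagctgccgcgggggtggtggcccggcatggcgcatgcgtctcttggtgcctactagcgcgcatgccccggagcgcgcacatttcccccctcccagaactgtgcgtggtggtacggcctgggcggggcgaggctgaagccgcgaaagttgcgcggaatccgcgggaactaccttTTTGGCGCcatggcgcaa
Mcm7: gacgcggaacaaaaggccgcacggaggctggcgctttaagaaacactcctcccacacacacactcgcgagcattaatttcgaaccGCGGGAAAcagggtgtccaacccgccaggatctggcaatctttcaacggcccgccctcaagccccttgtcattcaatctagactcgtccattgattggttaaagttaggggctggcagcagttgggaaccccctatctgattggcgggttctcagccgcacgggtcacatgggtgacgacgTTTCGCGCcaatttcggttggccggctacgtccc
Mcm5: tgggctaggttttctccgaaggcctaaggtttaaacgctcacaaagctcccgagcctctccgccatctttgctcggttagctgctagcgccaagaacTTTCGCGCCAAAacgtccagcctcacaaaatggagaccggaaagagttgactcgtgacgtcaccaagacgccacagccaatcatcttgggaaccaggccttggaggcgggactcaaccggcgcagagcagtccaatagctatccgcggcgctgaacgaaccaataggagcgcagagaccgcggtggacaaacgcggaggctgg
Brca2: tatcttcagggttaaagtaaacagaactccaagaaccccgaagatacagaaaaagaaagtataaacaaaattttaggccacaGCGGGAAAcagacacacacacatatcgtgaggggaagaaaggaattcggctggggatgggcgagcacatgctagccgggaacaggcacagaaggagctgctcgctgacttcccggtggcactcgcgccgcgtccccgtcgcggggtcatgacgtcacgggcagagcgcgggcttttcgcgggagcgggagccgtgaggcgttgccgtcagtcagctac
Brca1: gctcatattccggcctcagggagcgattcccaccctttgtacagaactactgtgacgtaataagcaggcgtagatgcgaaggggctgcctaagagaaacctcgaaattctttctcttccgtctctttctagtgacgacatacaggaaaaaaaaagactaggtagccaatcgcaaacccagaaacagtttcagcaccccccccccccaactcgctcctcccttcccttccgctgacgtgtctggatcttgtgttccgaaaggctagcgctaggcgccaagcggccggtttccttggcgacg

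A match to an E2F word was present in the windows of 14 of 37 members (37.8%), against 3.29% of 17492 protein-coding genes. Counted by window, it was present in 32.6% of the 43 member windows and 2.26% of all 32851 windows. Mcm6 had 3 matches, and Mcm3, Mcm5, Mcm7 and Rfc3 had 2 each. The match in the Cdt1 window lay after the start, while both matches in the Mcm5 window lay upstream of it and overlapped. The Brca1 window held none of these words and reaches into Nbr1, which starts at position 101552107 of chromosome 11 and is read in the other direction. The CCAAT word was in 60.5% of member windows and 37.4% of all windows, the GGGCGG word in 65.1% and 35.7%, and the TTTGAA word in 11.6% and 17.9%, both strands counted. Counted by gene, CCAAT was in 62.2% of members and 42.3% of protein-coding genes. For GGGCGG these shares were 70.3% and 49.2%, and for TTTGAA 13.5% and 18.5%. These are matches of letters and not measured binding sites.

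Signals below are in arbitrary units after every array was scaled to a trimmed mean of 500. The scaling factors were 2.65 to 3.49 for the NIH3T3 arrays and 1 for the B16F10 arrays, so levels set across the lines rest on this step. Changes are differences of log2(signal + 9), which understates the change of dim probe sets, and are given ± standard error. A change was called at a limma Benjamini-Hochberg adjusted p under 0.05 over all 25236 probe sets. Each control is 1 array with no spread of its own and was assumed to vary like the PGC7 arrays, so a p-value speaks only of the scatter among these arrays. Cultures of 1 line may share an infected population. All markers of melanocytes (10 of 10) were called higher in B16F10 and 7 of 9 fibroblast markers lower, as the cell line names imply. Dppa3 itself read 69.8 in the NIH3T3 control and 101, 29.7 and 55.4 in the uncloned culture, clone 1 and clone 2; it read 23.5 in the B16F10 control and 70.0, 117 and 71.0 in clones 1 to 3. Neither change was called (adjusted p = 0.802 and 0.27), so a rise of Dppa3 RNA was not detected by this test in either line. In bulk RNA, a lower signal cannot be split into fewer cycling cells and less RNA per cell.

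In NIH3T3, 6 of the 45 members passed the test in PGC7 cells. Cdt1 rose, and Mcm7, Pole, Prim1, Rfc1 and Brca2 fell, by 1.33-fold to 1.88-fold. Called higher were 2.22% of members and 7.87% of all tested genes; called lower were 11.1% of members and 7.35% of all tested genes. The members' share called was thus close to that of all genes. The median change was -0.14 for the members and -0.04 for all tested genes. Over 16 alternative fits, the call held in 11 for Mcm7, 10 for Brca2, 9 for Cdt1, 7 for Rfc1, 6 for Prim1 and 5 for Pole.

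**Figure D1:**
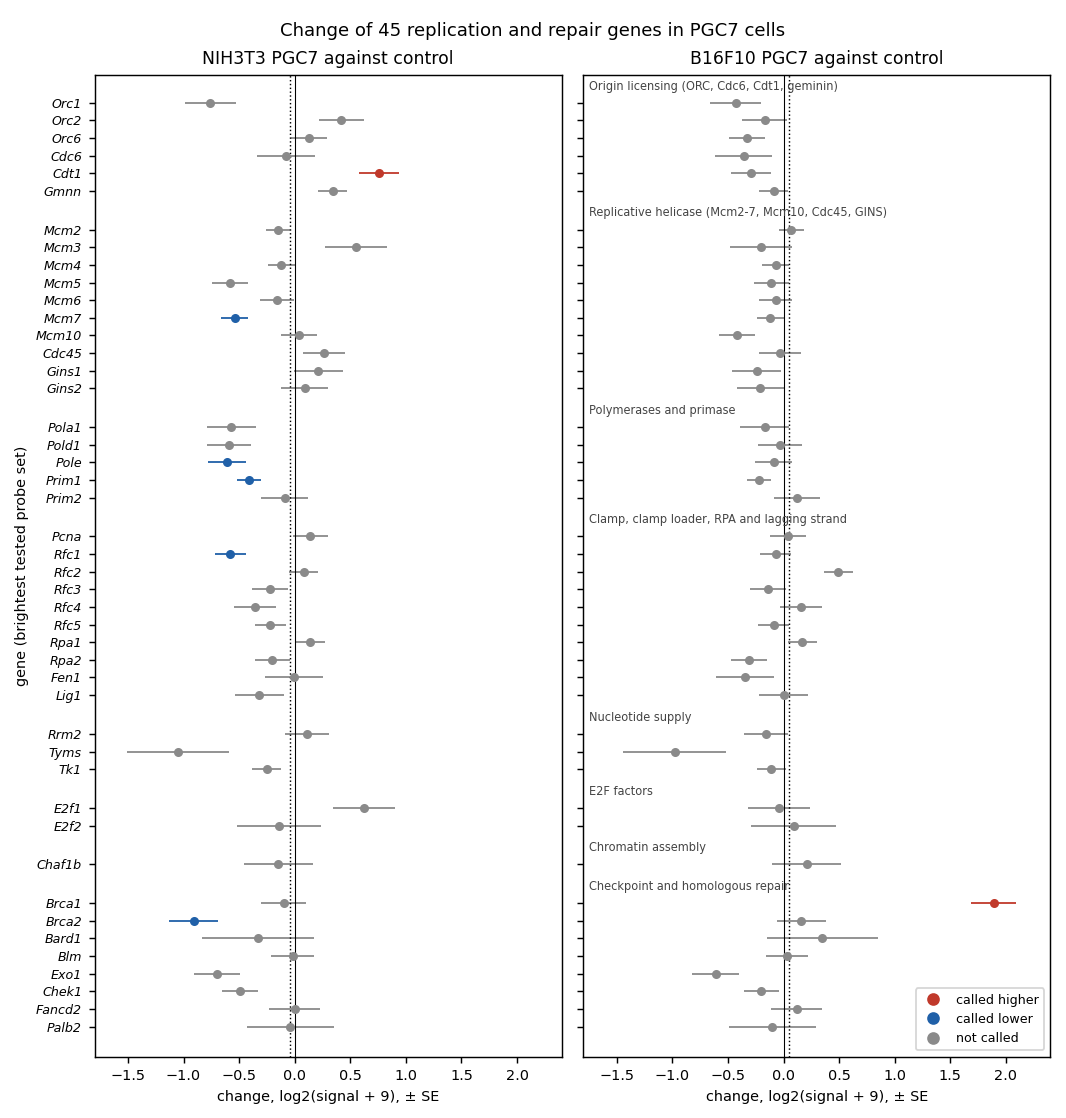
Change of the 45 members in PGC7 cells against the control of the same line, in log2(signal + 9) units with standard errors, grouped by role, for NIH3T3 (left) and B16F10 (right). Red points were called higher, blue points lower and grey points were not called; the dotted line is the median of all tested genes (-0.04 and 0.05). In NIH3T3, Cdt1 was called higher and 5 members lower, and in B16F10 Brca1 stands alone at 1.89; scaling on the poly-A spike probe sets shifts the whole panels, to member medians of 0.20 on the left and -0.93 on the right.

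Among the origin licensing genes, Cdt1 stood out in NIH3T3. Its product loads the helicase onto origins and is held in check by geminin. Cdt1 read 3459 in the control, 4803 in the uncloned culture, 6704 in clone 1 and 6255 in clone 2. All 3 PGC7 arrays were above the control, the clones furthest. The change was 0.76 ± 0.18 (1.69-fold higher, adjusted p = 0.0296), and a second Cdt1 probe set rose by 0.73 ± 0.20 (adjusted p = 0.0487). Orc2, a subunit of the origin recognition complex, read 839 in the control and 907, 1258 and 1256 in the PGC7 arrays, in the same order. Its change of 0.42 ± 0.20 was not called (adjusted p = 0.209), although 1 of its other probe sets, 1418225_at, rose by 0.76 ± 0.20 (adjusted p = 0.0434). Orc1, the largest subunit, read 549 in the control and 313, 316 and 331 in the PGC7 arrays. These 3 values lay close together and below the control, yet the change of -0.76 ± 0.23 was not called (adjusted p = 0.0611). Gmnn, which encodes geminin, read 1277 in the control and 1461, 1744 and 1656 in the PGC7 arrays (0.34 ± 0.13, adjusted p = 0.135).

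The helicase genes did not move in 1 direction in NIH3T3: 5 of 10 were above 0 and 5 below. By their brightest probe sets, only Mcm7, a helicase subunit, was called. Mcm7 read 7401 in the control, 5114 in the uncloned culture, 5504 in clone 1 and 4708 in clone 2. All 3 PGC7 arrays were below the control (-0.54 ± 0.12, 1.45-fold lower, adjusted p = 0.0246). The 3 other Mcm7 probe sets stood at -0.24 to -0.56 against the control, and 1 of them was called. Mcm5, another subunit, read 3240 in the control and 1828, 2516 and 2193 in the PGC7 arrays, and just missed the threshold (-0.58 ± 0.16, adjusted p = 0.0521). Mcm6 was not called by its brightest probe set (-0.16 ± 0.15, adjusted p = 0.512), but 1438852_x_at was called lower (-0.48 ± 0.10, adjusted p = 0.0209). That probe set read 1696 in the control and 1188 to 1237 in the PGC7 arrays. Mcm3 split the cultures: it read 2759 in the control and 2773 in the uncloned culture, but 4900 and 4852 in clones 1 and 2. Its change of 0.55 ± 0.28 was not called (adjusted p = 0.24). A second Mcm3 probe set, 1426652_at, showed the same split, with 1046 and 1103 against 2152 and 1921. So did 1449705_x_at and 1426653_at. The dim probe set 1420029_at did not, with 18.3 in the control, 60.7 in the uncloned culture and 55.5 and 39.4 in clones 1 and 2.

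All 5 polymerase and primase genes had a change below 0 in NIH3T3, against 53.6% of all tested genes, with a median of -0.57. Of the 5, 2 were called lower, against 7.35% of all tested genes. Pole encodes the catalytic subunit of the leading strand polymerase and Prim1 the catalytic subunit of primase. Pole read 1042 in the control and 708, 744 and 597 in the uncloned culture, clone 1 and clone 2 (-0.61 ± 0.17, 1.53-fold lower, adjusted p = 0.0471). Prim1 read 2085 in the control and 1515, 1574 and 1615 in the PGC7 arrays. Its 3 PGC7 values were close together and all below the control (-0.41 ± 0.11, 1.33-fold lower, adjusted p = 0.049). A second Prim1 probe set fell further, from 1992 to 807, 987 and 975 (-1.11 ± 0.21, adjusted p = 0.0127). Pola1, of the polymerase that starts new strands, read 731 in the control and 401, 608 and 478 in the PGC7 arrays (-0.57 ± 0.22, adjusted p = 0.12). Pold1, the catalytic subunit of the lagging strand polymerase, read 886 in the control and 512, 708 and 549 in the PGC7 arrays (-0.59 ± 0.20, adjusted p = 0.091). In both genes clone 1 was nearest to the control. Prim2, the other primase subunit, lay on both sides of its control (-0.09 ± 0.21). With scaling on the poly-A spike probe sets, 1 of the 5 was above 0 and the median was -0.23, against 0.29 for all genes.

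Rfc1 was the only called gene of the clamp group. It is the large subunit of the loader that opens the PCNA ring. Rfc1 read 1032 in the control and 748, 693 and 631 in the PGC7 arrays, all below the control (-0.58 ± 0.14, 1.49-fold lower, adjusted p = 0.0337). Its other probe sets fell as well (-0.71 ± 0.16 and -0.84 ± 0.18, adjusted p = 0.0216 and 0.0183). The small loader subunits ranged from 0.08 for Rfc2 to -0.36 for Rfc4. Rfc4 read 1434 in the control, 1381 in the uncloned culture, 1049 in clone 1 and 966 in clone 2, so the clones were lower than both other arrays (adjusted p = 0.251). Pcna, the clamp itself, read 14038 in the control and 12938, 16940 and 16808 in the PGC7 arrays (0.14 ± 0.16, adjusted p = 0.628).

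Brca2 fell most among the called members. It encodes a protein of homologous repair that acts on single-stranded DNA. Brca2 read 668 in the NIH3T3 control and 344, 431 and 292 in the uncloned culture, clone 1 and clone 2 (-0.91 ± 0.22, 1.88-fold lower, adjusted p = 0.0313). All 3 PGC7 arrays were below the control. Exo1, a nuclease that trims DNA ends, read 846 in the control and 466, 653 and 454 in the PGC7 arrays. Its change of -0.70 ± 0.21 was not called (adjusted p = 0.0639). Chek1, the kinase that slows the cycle when forks stall, read 740 in the control and 493, 548 and 533 in the PGC7 arrays (-0.49 ± 0.16, adjusted p = 0.0778). Brca1 lay on both sides of its control, with 755 in the control and 589, 875 and 683 in the PGC7 arrays (-0.10 ± 0.20, adjusted p = 0.801). Bard1, Blm, Fancd2 and Palb2 stood at -0.33 to 0.00 and were not called.

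The nucleotide genes, E2F factors and chromatin assembly gene had no called representative in NIH3T3. Tyms, thymidylate synthase, read 204 in the control and 104, 112 and 71.1 in the PGC7 arrays. This was the lowest change of any member, yet on a dim probe set and not called (-1.05 ± 0.46, adjusted p = 0.171). E2f1, an activator of S phase genes, read 809 in the control and 955, 1262 and 1617 in the PGC7 arrays (0.62 ± 0.28, adjusted p = 0.192). A second E2f1 probe set, 1417878_at, rose from 451 to 655, 676 and 694 (0.57 ± 0.15, adjusted p = 0.0436). Chaf1b, a histone chaperone subunit, was low only in the uncloned culture, with 1078 in the control and 657, 1145 and 1212 in the PGC7 arrays. Rrm2 and Tk1, which supply deoxynucleotides, stood at 0.11 ± 0.20 and -0.25 ± 0.13.

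**Figure D2:**
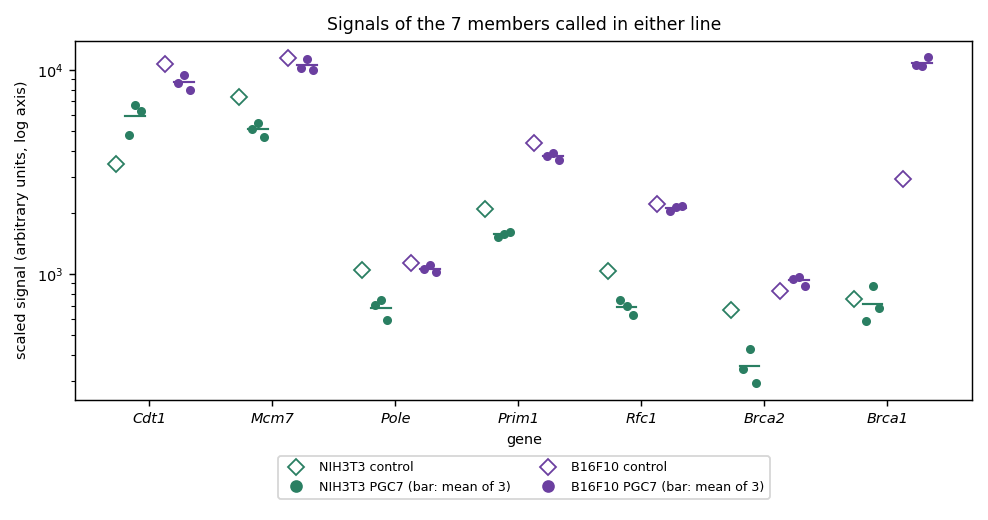
Scaled signals on a log axis for the 7 members called in either line, with NIH3T3 in green and B16F10 in purple; open diamonds are the single controls, dots the PGC7 arrays and bars their means of 3. In NIH3T3 the PGC7 arrays of Mcm7, Pole, Prim1, Rfc1 and Brca2 sit below the diamond and those of Cdt1 above it, while for Brca1 the large step is in B16F10, from 2916 to at least 10419.

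The median over the 45 members was -0.35 in the uncloned NIH3T3 culture, 0.01 in clone 1 and -0.16 in clone 2, given without a test. In the polymerase genes and in the checkpoint and repair genes, clone 1 had the median nearest to the control (-0.32 and 0.07), while the uncloned culture stood at -0.55 and -0.47 and clone 2 at -0.60 and -0.51. All 3 NIH3T3 PGC7 arrays were above the control for 7 of 45 members (31.2% of all tested genes) and below it for 20 of 45 (36.5% of all tested genes). Without the uncloned culture, 16 members were called, 6 higher and 10 lower, while 28.1% of all genes were called in that fit. Without clone 1 there were 6 calls (12.6% of all genes), of which only Mcm7 and Brca2 were also called with all arrays. Without clone 2 there was 1 call, Brca2 (12.1% of all genes). The calls also rest on the spread borrowed from B16F10. With only the 4 NIH3T3 arrays in the fit, no member and 5.52% of all genes were called, and with 1 B16F10 clone left out, 0 or 1 member and 9.62% to 11.4% of all genes. Of the fibroblast markers, 3 of 9 were called lower in the same arrays (7.35% of all tested genes). Their changes were below 0 for 7 (53.6% of all tested genes) and above 0 for 2. Their summed signal was 121450 in the control and 79340 to 88007 in the PGC7 arrays. Of the melanocyte markers, 1 of 10 was called higher and 1 lower, with sums of 956 in the control and 1372 to 2408 in the PGC7 arrays. Gpnmb alone carried that higher sum, with 22.9 in the control and 708, 656 and 1575 in the PGC7 arrays; the 9 other melanocyte markers were below 0 and summed to 933 in the control and 664 to 833 in the PGC7 arrays. Their part in these changes was not tested.

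**Figure D3:**
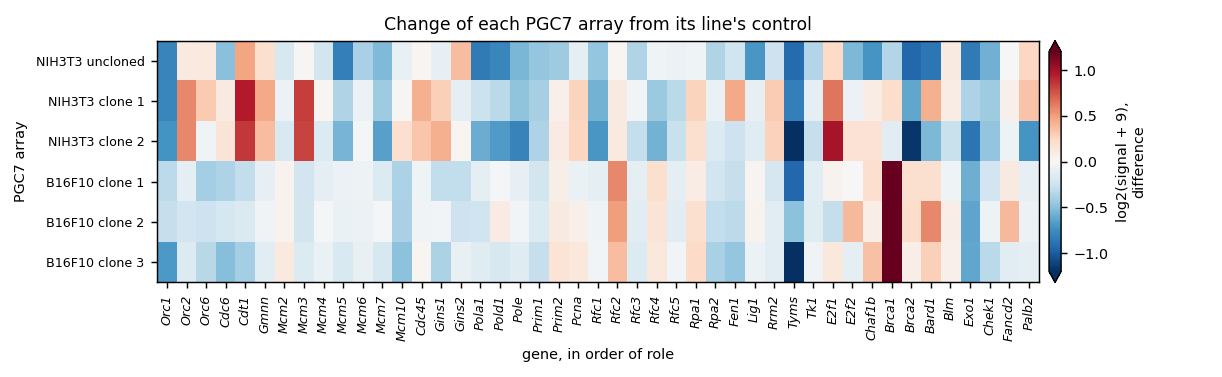
Change of each PGC7 array from the control of its line, in log2(signal + 9) units, for the 45 members in order of role; red is higher and blue is lower, and the colour scale ends at 1.2 in both directions. The uncloned NIH3T3 culture is mostly blue (median -0.35), the clones share red cells at Cdt1 and Mcm3, and Brca1 is off the scale in all 3 B16F10 clones; scaling on the poly-A spike probe sets would shift every row.

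In B16F10, Brca1 was the 1 member of 45 that passed the test. Called higher were 2.22% of members and 1.18% of all tested genes; called lower were no members and 0.386% of all tested genes. Brca1 is a ubiquitin ligase that pairs with Bard1 and steers breaks into homologous recombination. Its brightest probe set, 1424629_at, read 2916 in the control, 10511 in clone 1, 10419 in clone 2 and 11553 in clone 3. The 3 clones were far above the control and close to each other, and the change was 1.89 ± 0.20 (3.71-fold higher, adjusted p = 0.00602). Its call held in 15 of 16 alternatives, and without the intensity trend the adjusted p was 0.0568. With spike scaling the change was 1.05 and still called.

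The other Brca1 probe sets did not all show this. Probe set 1451417_at read 189 in the control and 870, 907 and 1296 in the clones (2.36 ± 0.27, 5.13-fold higher, adjusted p = 0.00883). Probe set 1424630_a_at read 75.6 in the control and 697, 676 and 995 in the clones (3.22 ± 0.37, 9.32-fold higher, adjusted p = 0.00937). Both rose in all 3 clones, clone 3 furthest. Probe set 1427698_at read 56.6 in the control and 45.7, 79.3 and 51.2 in the clones, which lay on both sides of the control (0.01 ± 0.64, adjusted p = 0.995). It was dim on every array, at most 79.3, and Brca1 was the only member whose tested probe sets differed by 1 or more in a line. Where the probes lie within the transcript was not analysed here. In NIH3T3 the same 4 probe sets stood at -0.11 to 0.27, and none was called.

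**Figure D4:**
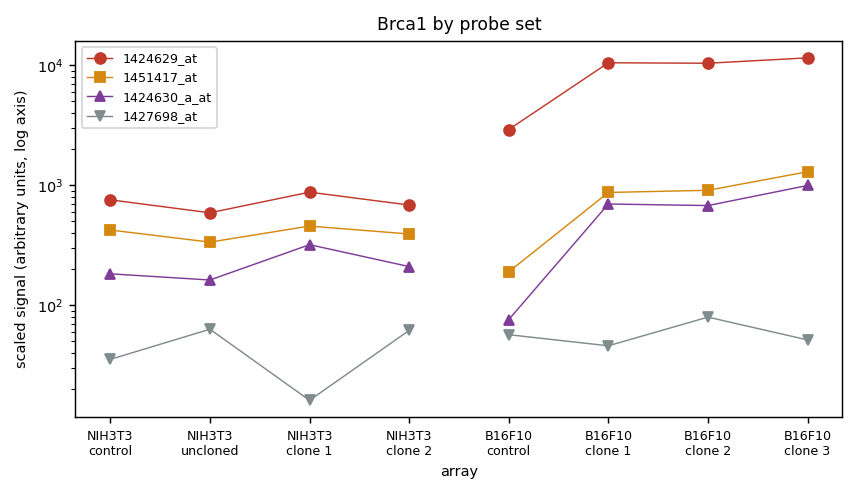
Scaled signal on a log axis of the 4 Brca1 probe sets on the 8 arrays; lines join the arrays of a line for the eye only. From the B16F10 control to its 3 clones, 3 probe sets step up, for 1424629_at from 2916 to 10419 or more, while 1427698_at stays between 45.7 and 79.3; in NIH3T3 the PGC7 arrays lie around their control.

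The partners of Brca1 did not pass the test with it. Bard1 read 85.9 in the B16F10 control and 99.3, 133 and 107 in the clones, all above the control on a dim probe set (0.35 ± 0.50, adjusted p = 0.802). Brca2 read 829 in the control and 950, 967 and 875 in the clones (0.16 ± 0.22, adjusted p = 0.791). Palb2, which bridges Brca1 and Brca2, read 357 in the control and 333, 339 and 328 in the clones (-0.10 ± 0.39). Fancd2 and Blm stood at 0.12 ± 0.23 and 0.03 ± 0.19. The checkpoint and repair genes had 5 of 8 members above 0 and a median of 0.08, against 0.05 for all tested genes.

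Most other members were a little lower in the B16F10 clones than in the control, without passing the test. The median was -0.09, and 32 of 45 were below 0, against 45% of all tested genes. An unadjusted p under 0.05 was found for 4 of 45, against 18% of all tested genes. All 3 clones were below the control for 28 of 45 members (31.9% of all tested genes) and above it for 9 of 45 (41.3% of all tested genes). All 6 licensing genes were below the control in every clone, with a median of -0.31, and so were 8 of the 10 helicase genes. Cdt1, the gene that rose in NIH3T3, read 10652 in the control and 8669, 9462 and 8004 in the clones (-0.29 ± 0.18, adjusted p = 0.506). Orc1 read 422 in the control and 339, 346 and 258 in the clones (-0.43 ± 0.23, adjusted p = 0.427). All 10 melanocyte markers were above the control in all 3 clones (41.3% of all tested genes), with a median of 0.26 and none called. Of the 9 fibroblast markers, 5 were above 0 and 4 below, also with none called. The part of the markers in these changes was not tested. With scaling on the poly-A spike probe sets, 36 members were called lower, and 49.6% of all genes were called in either direction. In that scaling the median of all genes was -0.76 and that of the members -0.93. The distance between them was -0.17, compared with -0.14 in the main scaling. Against their mean over all arrays, the spikes stood at -0.77 log2 units in the control and 0.06, -0.07 and 0.23 in clones 1 to 3. The spike shift in B16F10 thus rests mostly on the single control array.

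Brca1, Rfc2, Bard1 and Chaf1b had the 4 highest changes among the members in B16F10, and Tyms, Exo1, Orc1 and Mcm10 the 4 lowest; of these, only Brca1 was called. Rfc2, a small clamp loader subunit, read 2044 in the control and 3059, 2902 and 2650 in the clones, all above it (0.49 ± 0.13, adjusted p = 0.122). Chaf1b read 1030 in the control and 1187, 1087 and 1312 in the clones (0.21 ± 0.31, adjusted p = 0.811). Both changes turned negative with spike scaling (-0.35 and -0.62), as did that of Bard1 (-0.42). Tyms read 113 in the control and 54.4, 77.6 and 33.7 in the clones (-0.98 ± 0.46, adjusted p = 0.36). Exo1 read 1824 in the control and 1207, 1175 and 1184 in the clones, a tight group below it (-0.61 ± 0.21, adjusted p = 0.216). Mcm10, a factor for starting forks, read 1930 in the control and 1478, 1474 and 1374 in the clones (-0.42 ± 0.16, adjusted p = 0.258). With only the 4 B16F10 arrays in the fit, Rfc2 and Brca1 were called higher and Exo1 and Mcm10 lower, while 11.6% of all genes were called in that fit.

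The change with PGC7 was then compared between the lines, as the B16F10 change minus the NIH3T3 change. Of 45 members, 1 was called with a higher change in B16F10 (4.89% of all tested genes) and 1 with a lower one (4.05% of all tested genes). Brca1 differed by 1.98 ± 0.28 (adjusted p = 0.00668) and Cdt1 by -1.05 ± 0.26 (adjusted p = 0.0472). Cdt1 read higher than its control in all 3 NIH3T3 PGC7 arrays and lower than its control in all 3 B16F10 clones. The Cdt1 difference was sensitive to the fit, since its call held in 5 of 15 alternatives. The second Cdt1 probe set differed by -0.99 ± 0.28, which was not called (adjusted p = 0.0748). The call of Brca1 held in 14 of 15, and with spike scaling its difference was 0.80 and not called (adjusted p = 0.0788). Brca2, which fell in NIH3T3, gave a difference of 1.07 ± 0.31, which was not called (adjusted p = 0.0795). Across both lines together, limma called no member and 0.189% of all tested genes; 11 of 45 members (24.4%) had an unadjusted p under 0.05, against 19.1% of all tested genes. The lowest members in that fit were Tyms (-1.02 ± 0.32), Exo1 (-0.66 ± 0.16) and Orc1 (-0.59 ± 0.18), with adjusted p of 0.179, 0.126 and 0.17.

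Most members differed in level between the lines. With PGC7 as a term in the fit, 35 of 45 members were called higher in B16F10 (35% of all tested genes, which is 77.8% for the members) and 2 were called lower (37.1% of all tested genes). The median difference, B16F10 minus NIH3T3, was 1.13 for the members and -0.03 for all tested genes. The 4 B16F10 arrays lay above all 4 NIH3T3 arrays for 34 members (31.1% of all tested genes) and below them for 1 (32.3% of all tested genes). The distance between the member median and that of all genes was 1.07 in the values as deposited, 1.02 after quantile normalization and 1.15 after spike scaling, compared with 1.16 here. An effect of the array batch cannot be told apart from that of the line.

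**Figure D5:**
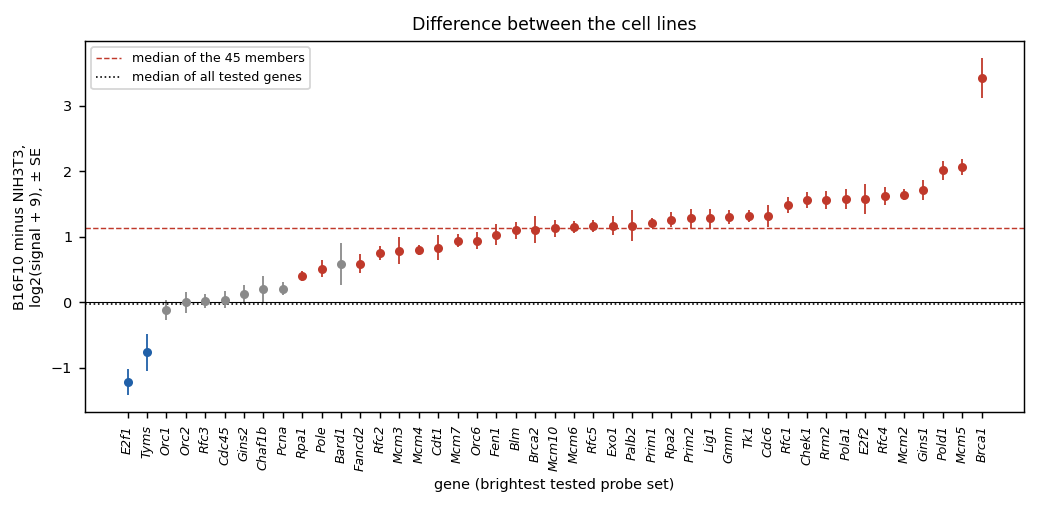
Difference between the lines for the 45 members, B16F10 minus NIH3T3 in log2(signal + 9) units with standard errors, in rising order; red was called higher in B16F10, blue lower, grey not called. The dashed line is the members' median (1.13) and the dotted line that of all tested genes (-0.03). E2f1 and Tyms lie lowest and Brca1 highest, each by its brightest probe set; in the values as deposited all 45 were above 0.

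The higher level in B16F10 ran through nearly every role. All 5 polymerase and primase genes, 8 of 10 helicase genes, 8 of 10 clamp genes, 7 of 8 checkpoint and repair genes and 4 of 6 licensing genes were called higher. Mcm5 read 1828 to 3240 on the 4 NIH3T3 arrays and 9373 to 10607 on the 4 B16F10 arrays (2.06 ± 0.12, 4.17-fold higher, adjusted p = 7.7e-07). Pold1 read 512 to 886 and 2352 to 2896 (2.01 ± 0.15, 4.03-fold higher, adjusted p = 3.18e-06), but its other probe set, 1448187_at, differed by only 0.40 ± 0.12 (adjusted p = 0.0151). Gins1, a subunit of the GINS helicase activator, read 555 to 802 and 1905 to 2483 (1.71 ± 0.15, 3.27-fold higher, adjusted p = 9.97e-06). For these 3 probe sets the ranges of the lines did not overlap. The brightest Brca1 probe set read 589 to 875 and 2916 to 11553 (3.42 ± 0.31, 10.7-fold higher, adjusted p = 1.02e-05), a value that holds its rise in the B16F10 clones. The 3 other Brca1 probe sets were not called between the lines (0.44, 0.73 and 1.03, adjusted p = 0.323, 0.121 and 0.0781), and the mean over its probe sets differed by 1.41 (adjusted p = 0.00215). The probe set 1451417_at of Brca1 even read lower in the B16F10 control (189) than in the NIH3T3 control (423).

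Few members departed from this by their brightest probe sets. E2f1 read 809 to 1617 in NIH3T3 and 396 to 535 in B16F10, with no overlap (-1.22 ± 0.20, 2.33-fold lower, adjusted p = 0.000489). A second E2f1 probe set, 1417878_at, did not show it, with 0.25 ± 0.17 (adjusted p = 0.205), and in the values as deposited E2f1 was 0.35 above 0. Tyms was called lower (-0.76 ± 0.28, adjusted p = 0.033), but its probe set 1442192_at was called higher (1.83 ± 0.48, adjusted p = 0.007). Mcm3 and Mcm10 also had probe sets called in opposite directions. For Mcm3, probe set 1426653_at read 1440 to 2482 in NIH3T3 and 418 to 512 in B16F10 (-1.98 ± 0.18, adjusted p = 1.06e-05), while its 4 other probe sets were called higher. Orc1, Orc2, Rfc3 and Cdc45 stood at -0.12 to 0.04 by their brightest probe sets, and other probe sets of 3 of them were called. For Orc2, 1418225_at and 1418227_at were higher in B16F10 (1.47 ± 0.24 and 0.70 ± 0.26, adjusted p = 0.00042 and 0.0343). For Rfc3, 1423700_at was higher (0.63 ± 0.11, adjusted p = 0.000655), and for Orc1, 1443172_at was lower (-1.28 ± 0.22, adjusted p = 0.000678). The Chaf1b probe set 1431275_at was also called lower (-1.22 ± 0.46, adjusted p = 0.037), its brightest not (0.20 ± 0.20). Rpa2 and Exo1 were called higher by their brightest probe sets (1.26 ± 0.11 and 1.17 ± 0.14). Their probe sets 1454011_a_at and 1418027_at were not called (0.01 ± 0.16 and -0.18 ± 0.14, adjusted p = 0.957 and 0.278). Pcna read 12938 to 16940 and 16175 to 18681, overlapping ranges (0.21 ± 0.10, adjusted p = 0.0866).

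The difference between the lines was also described by the E2F words of the windows, without a test. Of the 14 with a word, 11 were called higher in B16F10, with a median of 1.13. Of the 22 tested members with a window but no word, 16 were called higher, with a median of 1.14. Of the 9 without a window, 8 were called higher, with a median of 0.80. Of all tested genes, 35% were called higher, with a median of -0.03.

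Other genes of the same pathways gave the following counts in NIH3T3, where 7.87% of all tested genes were called higher and 7.35% lower. In the order below, the lists had 6.52%, 1.89% and 4.35% called higher and 4.35%, 3.77% and 8.7% called lower. Of 46 further replication genes, 3 rose and 2 fell; Pold4, an accessory polymerase subunit, rose by 2.43 ± 0.34 (adjusted p = 0.0033) and Pole2 by 0.68 ± 0.16 (adjusted p = 0.0271), while Hells, a chromatin remodeller needed for DNA methylation, fell by 0.92 ± 0.13 (adjusted p = 0.00346) and Rrm1, the large ribonucleotide reductase subunit, fell (-0.43 ± 0.11, adjusted p = 0.0375). Pole2 and Pole code for subunits of the same polymerase and were called in opposite directions. Of 53 further repair and checkpoint genes, 1 rose and 2 fell; Hus1, part of the checkpoint clamp, rose by 0.84 ± 0.15 (adjusted p = 0.00839). Of 23 E2F and pocket protein genes, E2f8, a repressor of the family, rose by 1.24 ± 0.23 (adjusted p = 0.0105), and Foxm1 and Lin54 fell (-0.78 ± 0.18 and -0.70 ± 0.15, adjusted p = 0.0281 and 0.0214). The medians of the lists were -0.05, -0.05 and -0.04, near the -0.04 of all genes.

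In B16F10, limma called none of these further genes and 1.56% of all tested genes. At an unadjusted p under 0.05 were 9 of 46 replication genes, 4 of 53 repair genes and 8 of 23 E2F and pocket protein genes. These shares were 19.6%, 7.55% and 34.8%, against 18% of all tested genes. The medians of the lists were -0.16, -0.01 and -0.24, against 0.05 for all tested genes. Between the lines, 32 of 46 further replication genes were called higher in B16F10 and 5 lower (median 0.78), and 26 of 53 further repair genes higher and 10 lower (median 0.35), both medians below the 1.13 of the members. Of all tested genes, 35% were called higher in B16F10 and 37.1% lower.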

How the data were processed

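Total RNA was labelled with biotin and hybridized, 1 array per sample, 8 arrays in all. The deposited values give each probe set a linear intensity that MAS5 produced, per the submitters' processing notes; version and settings are not given in the sources used here. From them, each array was scaled to a mean of 500 after trimming 2% at each end, and log2(signal + 9) was taken. Probe sets that stayed dim in both lines, with a mean below the overall median signal of 49.3, were left out. Symbols came from the platform annotation, updated by gene identifier to GRCm38.p6: 34958 probe sets had 1 symbol, 932 several and 9211 none, and 1 probe set shared by Tyms and another symbol was left out.

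Tests used limma 3.58.1 in R 4.3.3, two-sided, with an intensity trend. Changes within a line and their difference came from 4 group means over all 8 arrays (8.5 degrees of freedom), and the change across both lines and the difference between lines from an additive fit (9.19). The fit was tested on simulated data. The number of arrays limits the precision.

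The members, lists, tests and the rule for named genes were chosen with earlier results of these data known. Values on the arrays concerned are given for each called member, the 4 highest and lowest changes in each line, the 4 members highest in each line and genes whose probe sets disagree, and changes, of other lists, for up to 2 called genes in each direction; members beyond this rule are named to complete a role. Some called genes of the other lists are not reported here. Alternatives were other scalings, pseudocounts (1 and 32), filters, variance priors, gene summaries, arrays left out and a block for clone number.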

Additional observations from a re-analysis of the deposited data

Results flagged for a closer look

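The change with PGC7 differed between the lines, B16F10 minus NIH3T3, by the limma interaction test for 8 probe sets of 5 members, 8.89% of the 90 tested member probe sets, against 6.88% of all tested probe sets. For Brca1 the differences were 1.98 ± 0.28 (1424629_at, adjusted p = 0.00668), 2.47 ± 0.38 (1451417_at, adjusted p = 0.00885) and 2.95 ± 0.53 (1424630_a_at, adjusted p = 0.0159). For Orc2 they were -1.38 ± 0.29 (1418225_at, adjusted p = 0.0274) and -1.48 ± 0.33 (1418227_at, adjusted p = 0.0329), while the brightest Orc2 probe set gave -0.59 ± 0.28 (adjusted p = 0.265). Probe set 1418225_at read 384 in the NIH3T3 control and 532, 704 and 751 in the PGC7 arrays, and 2221 in the B16F10 control and 1467, 1512 and 1348 in the clones, so it was higher in every NIH3T3 PGC7 array and lower in every B16F10 clone. For Cdt1 the difference was -1.05 ± 0.26 (adjusted p = 0.0472) and for the E2f1 probe set 1417878_at -0.91 ± 0.22 (adjusted p = 0.0427). For the Rfc1 probe set 1449050_at it was 0.92 ± 0.22 (adjusted p = 0.0429), and the other Rfc1 probe sets gave 0.51 ± 0.20 and 0.57 ± 0.25 without a call. Also without a call were the second Cdt1 probe set (-0.99 ± 0.28, adjusted p = 0.0748) and the brightest E2f1 probe set (-0.66 ± 0.40, adjusted p = 0.375). Brca1 probe set 1427698_at was not called either (-0.17 ± 0.91, adjusted p = 0.936). The causes were not tested.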

How the results depend on the processing

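Each control is a single array, and counts of called members moved with the fit. The 6 called in NIH3T3 (15.2% of all genes) became 1 with spike scaling, 0 without the intensity trend and 0 with the arrays of the line alone (14.8%, 8.98% and 5.52% of all genes), and 0 to 16 with an array left out (9.62% to 28.1%). The 1 called in B16F10 became 37 with spike scaling, 0 without the trend and 4 with the arrays of the line alone (49.6%, 0.326% and 11.6% of all genes), and 1 to 2 with an array left out (0.275% to 9.56%). The 2 differences between the lines became 25 with spike scaling (49.1% of all genes), all with a lower change in B16F10, and Brca1 was not among them. The differences called became 1 each with quantile normalization, pseudocount 1, no filter or no trend (4.34% to 9.07%), and 1 to 9 with an array left out (3.87% to 21.8%). The spike shift in B16F10 rests mostly on its single control, where the spikes stood at -0.77 log2 units from their mean over all arrays. Member medians moved to 0.20 (NIH3T3), -0.93 (B16F10) and 1.38 (between lines) with spike scaling, in which the medians of all genes were 0.29, -0.76 and 0.23, and to 2.64 between lines in the values as deposited (all genes 1.56). Spike scaling reversed Rfc2 (-0.35), Bard1 (-0.42) and Chaf1b (-0.62) in B16F10, and the mean over probe sets also Chaf1b (-0.18). Between lines, the uncalled Orc2 (0.00) turned positive at 1.56 as deposited, 0.06 with quantile normalization, 0.24 with spike scaling, 0.72 as a mean over probe sets and lay between -0.09 and 0.08 with an array left out. Orc1 turned to 1.40, 0.19 and 0.13 with the first 3 of these, Tyms to 0.62 as deposited and 0.54 as a mean over probe sets, and E2f1 to 0.35 as deposited. Apart from fewer genes, samples or a shifted scale, the cause was not tested. Clone numbers 1 and 2 are shared by the lines and nothing says that they pair the cultures; with clone number as a replicate block, 34 members and 60.5% of all genes were called between the lines, with a member median of 1.11, and no member and no gene across both lines.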

Other observations

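Genes beside Brca1 on chromosome 11 were chosen after the Brca1 values were seen, and their values are given without explanation. In B16F10, Rnd2, a small GTPase gene that ends before Brca1, read 424 in the control and 1034, 1221 and 1096 in the clones, a change of 1.38 (limma adjusted p = 0.0279). Nbr1, an autophagy receptor gene that starts next to Brca1 on the other strand, stood at 0.50 and 0.94 at its probe sets, and Vat1 at 0.47 to 0.52, with no call. Ifi35 stood at 0.26 to 0.52 and Tmem106a at 0.95 and 0.13 at their probe sets, also with no call. Rpl27, a ribosomal protein gene further out, stood at 0.01 to 0.13. In NIH3T3, Nbr1 rose by 0.87 and 0.83 (adjusted p = 0.00708 and 0.0236), and Ifi35 was called lower at 3 probe sets (-0.86 to -2.06).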
